A study of Mus musculus with 2 samples.

Results

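A total of 869 of the 4681 YY1 peaks (18.6%, exact 95% interval 17.5% to 19.7%) had their summit inside a gene, beyond the first 100 bp and within 1000 bp of the nearest coding start site, at promoters with coding starts on 1 strand only. They were chosen by position alone. The summit, the base with the highest pileup, had the start of a protein-coding transcript (GENCODE M21 basic, mm10) in this range upstream of it in the direction of the gene, and no coding start was nearer. Of 1092 summits placed in this way, 100 were dropped because coding starts lay within 1000 bp on both strands, and a further 123 because the start of a lincRNA, antisense or processed transcript gene lay within 1000 bp. The 869 peaks are called downstream peaks here, and a start without such neighbours a single coding start, although some had alternative starts on the same strand. Peaks with the summit within 100 bp of a single coding start (centred peaks, n = 1385) and peaks over 100 to 1000 bp on the other side (upstream peaks, n = 629), with the same exclusions, served for comparison.

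The peaks come from 1 YY1 ChIP-seq library of muscle stem cells (MuSCs), called against 1 background library that the labels name input and the study's methods name input (IgG). The study describes the cells as freshly isolated and mixed from several Ctrl mice of the genotype Pax7 CreERT2/R26YFP, Yy1 +/+, mdx. These mice carry normal Yy1 alleles, a tamoxifen-inducible Cre recombinase at the Pax7 gene, a YFP reporter at Rosa26 and the mdx mutation of dystrophin, and the sort took the fluorescent cells. The study gave tamoxifen to Ctrl mice as well as to mice with Yy1 deleted, but its text names no treatment for this library. The labels describe wild-type cells and give a culture protocol, so the sources differ on both points, and neither states an age. There were no replicates: the spread between mice and between libraries is unknown, and the intervals given cover counting error only. A peak list holds no expression, so the identity of the cells could not be checked with marker genes. Of 8 MuSC marker genes looked up (Pax7, Myf5, Myod1, Cdh15, Itga7, Sdc4, Vcam1 and Calcr), Pax7 alone had a summit within 1000 bp of a coding start. Over all protein-coding genes, 18.7% had such a summit. The Pax7 summit had a fold enrichment of 2.65 over a local background of 43.5 fragments.

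YY1 is a zinc finger protein that binds DNA at a word with the core ATGG and can activate or repress transcription, depending on its partners. It is known for binding close to the start sites of broadly expressed genes and for bringing enhancers and promoters together. Its word contains ATG, and when it is read in the direction of the gene this triplet can also serve as the first codon of the protein. The region described here, the first kilobase inside the gene, holds the 5′ untranslated region (UTR), the first coding bases and the beginning of the first intron.

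The word searched was AANATGGC on either strand, where N is any base, within 100 bp of the summit. In 8 downstream peaks the ATG of the word was an annotated start codon. The 5 of them with the highest fold enrichment are shown, from the mm10 reference and in the direction of the gene, with the word in capitals. They are at chr11:59163676-59163705 (Iba57, minus strand), chr5:113771620-113771649 (Sart3, minus strand), chr9:108936705-108936734 (Uqcrc1, plus strand), chr5:100518463-100518492 (Cops4, plus strand) and chr12:13249104-13249133 (Ddx1, minus strand).
Iba57: acttagcgcccAAGATGGCagcggtggcgc
Sart3: gcgggctgcgcAAGATGGCgacgacggccg
Uqcrc1: acggaagttagAAGATGGCggcgtccgcag
Cops4: gagctggaggaAAGATGGCggctgccgtgc
Ddx1: aggagtgcgggAAGATGGCggccttctccg

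A second word was present in 2 downstream peaks, at Tra2b, which encodes a splicing regulator, and at Morf4l1, which encodes a chromatin protein that reads methylated histones. Both lay in the first intron, and they are shown for the spacing of the words. The words of Tra2b faced each other on opposite strands (chr16:22265484-22265513 and chr16:22265401-22265430, minus strand), and those of Morf4l1 followed each other on the gene strand (chr9:90113951-90113980, minus strand).
Tra2b, 503 bp from the start: gggggaggctaAAGATGGCcgcggcgtccg
Tra2b, 586 bp from the start: gccgcgccgcaGCCATCTTgggctcgcggg
Morf4l1: ttgtAAGATGGCcgcggcAAGATGGCcgcg

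Of the motif-bearing peaks in first introns, 4 more are shown from genes of RNA-binding and splicing proteins, which were chosen after their values were seen. Those of Sfpq (chr4:127022246-127022275, plus strand) and Srsf6 (chr2:162931862-162931891, plus strand) carried the word on the gene strand. Those of Srek1 (chr13:103774169-103774198, minus strand) and Srsf5 (chr12:80946088-80946117, plus strand) carried it on the other strand, where it reads as GCCATNTT.
Sfpq: tccgtttccctAAGATGGCggcgcctgcct
Srsf6: gcagggcctctAAAATGGCggcggcggcgg
Srek1: ttccctaggcgGCCATGTTtgatgagggca
Srsf5: cttcggccgtcGCCATTTTgtgctgcgaac

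Of the 10 downstream peaks with the highest fold enrichment, 0 carried AANATGGC within 100 bp of the summit (exact upper limit 30.8%), a limit that includes the share of 4.60% over all downstream peaks. Farther out in the called interval, Pcif1 had 3 such words and Nfkbia 1. The 61 bp around the summit, with the summit base in capitals, are shown for 5 of the tallest whose stretch overlaps no UTR of the gene. They lie at chr2:164879824-164879884 (Pcif1, plus strand), chr7:100159579-100159639 (Lipt2, plus strand), chr7:110614523-110614583 (Sbf2, minus strand), chr5:134313703-134313763 (Gtf2i, minus strand) and chr10:4386904-4386964 (Zbtb2, minus strand). All but Gtf2i are rich in G and C, while the Gtf2i stretch is rich in T and G.
Pcif1: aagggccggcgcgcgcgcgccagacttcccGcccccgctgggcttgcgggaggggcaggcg
Lipt2: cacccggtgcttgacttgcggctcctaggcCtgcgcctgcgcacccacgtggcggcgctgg
Sbf2: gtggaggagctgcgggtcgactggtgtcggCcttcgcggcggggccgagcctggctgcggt
Gtf2i: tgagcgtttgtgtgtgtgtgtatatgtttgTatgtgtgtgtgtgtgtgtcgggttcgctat
Zbtb2: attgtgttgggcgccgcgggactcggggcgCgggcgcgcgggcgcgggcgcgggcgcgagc

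Downstream summits were most frequent next to the start. The median distance was 232 bp, the quartiles were 148 and 396 bp, and the farthest summit lay 995 bp away, in Sfpq. Up to 200 bp lay 368 summits (42.3%), in the next 100 bp 174 (20.0%), beyond 300 and up to 500 bp 185 (21.3%) and beyond 500 bp 142 (16.3%). The 100-bp bins on either side of the start held 682 and 688 summits, and the number fell to 13 in the last bin before 1000 bp. At equal distances the downstream side held more summits than the upstream side, 368 against 314 in the first bin beyond 100 bp and 174 against 136 in the next. At the near edge of the rule, 40 summits lay in the last 10 bp inside 100 bp, with a median fold enrichment of 5.15 (2.83 to 13.4), and 49 in the first 10 bp beyond it, with a median of 4.82 (2.83 to 10.3). At the far edge, 1 summit lay in the last 10 bp before 1000 bp (7.89, Sfpq) and 1 in the 10 bp after it (5.13). The rule therefore divides a continuous distribution at its near edge. The called interval, which had a median width of 352 bp, still contained the start in 369 peaks (42.5%).

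**Figure D1:**
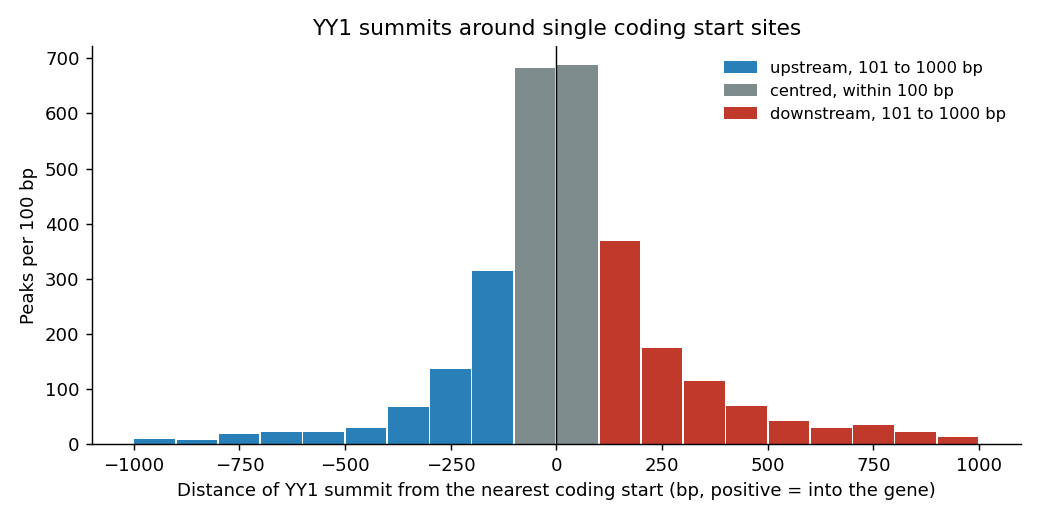
Peaks per 100 bp (y axis) against the distance of the YY1 summit from the nearest single coding start in bp (x axis, positive into the gene). Upstream peaks are blue, centred peaks grey and downstream peaks red; 15 summits exactly at a start are not drawn. The counts fall from 368 in the first red bin to 13 in the last.

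The start sites depended on the annotation. With curated RefSeq transcripts of the same genome, 710 of the 869 summits (81.7%) also had the nearest start in the same range upstream. For 89 (10.2%) a RefSeq start lay within 100 bp of the summit, for 44 the nearest RefSeq start lay on the other side, and for 26 it was over 1000 bp away. Among the 10 tallest peaks 6 kept their place. At Pigg, the tallest, a RefSeq start lay 75 bp beyond the summit. In GENCODE itself, 537 of the summits had 1 coding start within 1000 bp, while the remainder had further starts on the same strand.

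Almost all summits, 844 of 869 (97.1%), lay in the first exon or the first intron of the transcript that starts nearest. The 5′ UTR of the first exon held 314 (36.1%, interval 32.9% to 39.4%), coding sequence 205 (23.6%, of which 191 in exon 1) and introns 349 (40.2%, of which 338 in intron 1). A single summit, at Mtln, fell in a 3′ UTR, within exon 1. Since exons come first, the split moved with distance: up to 200 bp from the start 195 of 368 summits lay in the 5′ UTR, whereas beyond 500 bp 89 of 142 lay in an intron. Centred peaks lay in the 5′ UTR in 608 of 1385 cases, in coding sequence in 75 and in an intron in 20, and the others lay outside the transcript.

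**Figure D2:**
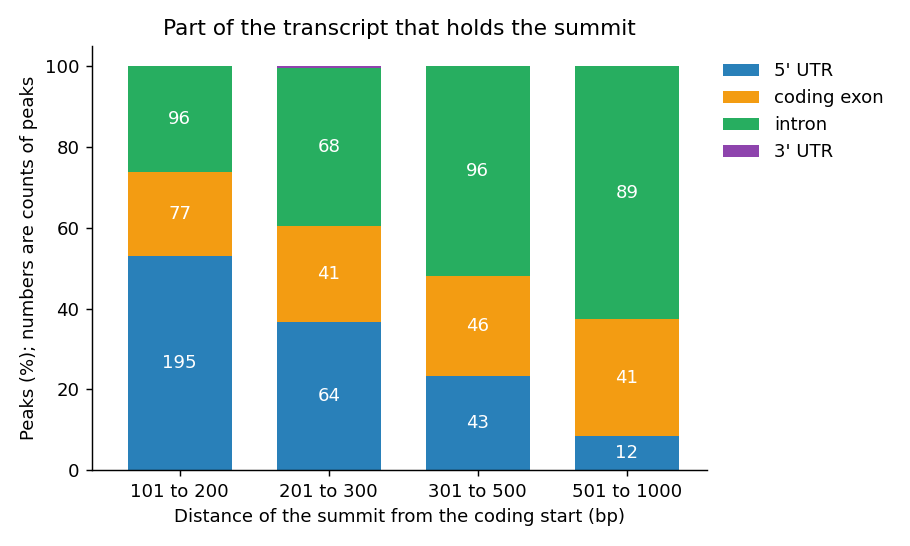
Share of downstream peaks in percent (y axis) by the part of the transcript that holds the summit, for 4 ranges of distance from the coding start in bp (x axis); numbers in the bars count peaks. The 5′ UTR gives way to introns with distance, from 195 peaks in the first range to 12 in the last.

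The height of a peak was given as fold enrichment, the fragments at the summit over the local background, with 1 added to each. Both numbers were recovered from the deposited values. Downstream peaks had a median fold enrichment of 4.97 (quartiles 4.29 and 5.71, range 1.81 to 10.3), against 5.19 at centred and 5.13 at upstream peaks. A fold enrichment of at least 5 was reached by 434 downstream peaks (49.9%, interval 46.6% to 53.3%), by 60.8% of centred peaks (58.2% to 63.4%) and by 60.7% of upstream peaks (56.8% to 64.6%). The q-value given by the peak caller was under 0.01 in 88.8% of downstream, 94.1% of centred and 94.6% of upstream peaks. Behind a typical downstream peak stood few reads, with a median of 13 fragments at the summit over a background of 1.85, and 308 peaks rested on the genome-wide background of 1.54. Heights differed little with distance, with medians of 5.13, 4.80, 4.82 and 4.73 from the nearest to the farthest range. Where the interval still contained the start the median was 5.15, and where it did not 4.73. These values come from 1 library, so they are given without a test.

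The tallest downstream peak lay at Pigg, which encodes an enzyme of glycosylphosphatidylinositol anchor synthesis (chr5:108312553-108312943). Its summit, 102 bp from the start, had 25 fragments over 1.54, a fold enrichment of 10.3. Ptpn2 (a protein tyrosine phosphatase), Pcif1 (which methylates the cap-adjacent adenosine of mRNA) and Lipt2 (an enzyme of lipoic acid synthesis) followed with 23 fragments and 9.46 each. Their summits lay 235, 489 and 332 bp from the start. Larp1b, a La-related RNA-binding protein, and Sbf2, a member of the myotubularin family, had 22 fragments and 9.07 each. The remaining 4 of the first 10 were Gtf2i, a general transcription factor (8.74, 949 bp from the start), Zbtb2, a zinc finger factor (8.68, 541 bp), Nbn, a sensor of DNA breaks (8.68, 200 bp), and Nfkbia, the inhibitor that holds NF-κB in the cytoplasm (8.59, 714 bp). These genes share no single function by the lists used here. In 7 of the 10 the called interval contained the start.

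The downstream peaks with the most fragments were other ones. Pax7, which encodes the transcription factor that defines MuSCs, had 117 fragments at a summit 703 bp from the start in intron 1 (chr4:139832131-139832482). The local background there was 43.5 fragments, so that the fold enrichment was 2.65. Runx1, a transcription factor of blood cell formation, had 88 fragments over 31.6 (fold enrichment 2.73), and Asmt, which encodes the last enzyme of melatonin synthesis, had 76 over 41.5 (1.81). AW822073 followed with 33 over 10.2 and Duxf3, a double homeobox gene, with 27 over 7.01. In total 6 downstream peaks had a local background over 5 fragments. The background library, and not the YY1 library alone, was high at these sites. The Pax7 window is also poor in G and C, 39.8% against a median of 73.1% over all downstream windows, and 12 windows in all were under 50%. It is shown because Pax7 is the marker gene with a peak (chr4:139832274-139832334, minus strand).
Pax7: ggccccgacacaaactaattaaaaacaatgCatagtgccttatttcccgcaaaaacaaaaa

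The mice carry the CreERT2 allele at Pax7, and its part in these fragment counts was not tested. The windows of Pax7, Runx1 and Asmt had no near-identical copy on the reference chromosomes, whereas those of AW822073 and Duxf3 had 2 matching places each, themselves included. Over all downstream peaks, 19 windows (2.19%) had at least 95% of their bases matched a second time, among them Hspa1b, Zmym2, Zmym5, Ifnz and Gm13288, and for these the position of the reads is uncertain. At centred peaks this held for 0.578% of windows.

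**Figure D3:**
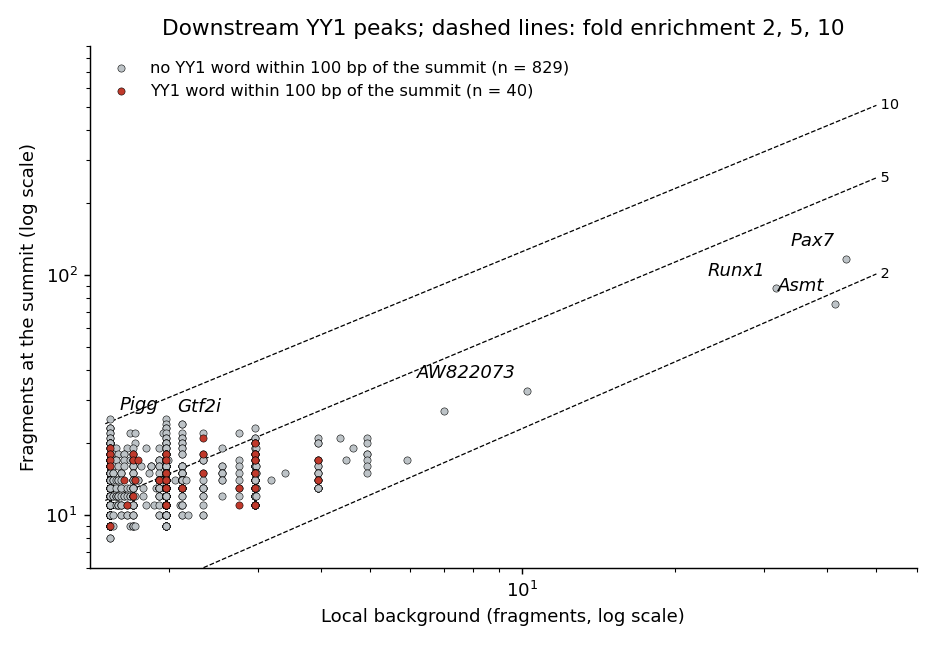
Fragments at the summit (y axis, log scale) against the local background in fragments (x axis, log scale) for the 869 downstream peaks; red points carry the YY1 word within 100 bp of the summit (n = 40), and dashed lines mark fold enrichments of 2, 5 and 10. Pax7, Runx1 and Asmt stand apart at the right with 117, 88 and 76 fragments over backgrounds of 43.5, 31.6 and 41.5.

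The YY1 word was rarer at downstream peaks than at centred ones. It was present in 40 of 869 downstream windows (4.60%, interval 3.31% to 6.22%) and in 136 of 1385 centred windows (9.82%, 8.30% to 11.5%). The ratio was 0.469, with a 95% interval of 0.333 to 0.660, and differed from 1 by a Fisher's exact test on both sides (p = 5.23e-06, 3.66e-05 after Benjamini-Hochberg adjustment over 7 motif comparisons). The test compares windows of 1 peak list, not replicates. Over all single coding starts, with or without a peak, the word was also rarer at this distance: 4.93% of windows centred on the start held it, and 3.30% of windows 232 bp downstream. Windows 2000 bp to either side of the downstream summits that overlapped no peak held the word in 56 of 1726 cases (3.24%), and the ratio of 1.42 (0.953 to 2.11) did not pass Fisher's exact test (p = 0.0979, adjusted 0.228). It passed, unadjusted, when curated RefSeq starts defined the peaks (1.60, p = 0.0127, Fisher's exact test), or 1 start per gene (1.90, p = 0.000205, Fisher's exact test). Its direction reversed with the shorter word AANATGG (0.514, p = 3.41e-07, Fisher's exact test), which was rarer at summits than in flanking windows. On the side away from the gene 36 of 861 flanking windows (4.18%) held AANATGGC, and on the side into the gene 20 of 865 (2.31%). Upstream peaks, at 31 of 629 (4.93%), did not pass the test against downstream ones (ratio 0.934, 0.591 to 1.48, p = 0.806, Fisher's exact test, adjusted 0.806). Of the motif-bearing downstream peaks, 29 of 40 also met the rule with RefSeq starts.

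**Figure D4:**
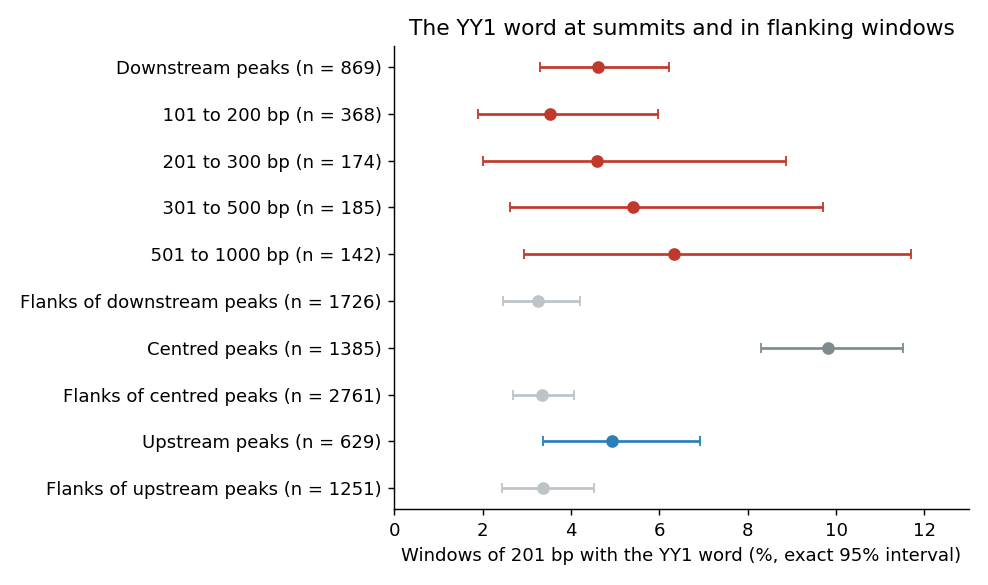
Share of summit windows (100 bp to each side) with the YY1 word in percent (x axis) with exact 95% intervals, for downstream peaks (red, in all and by distance), centred peaks (dark grey), upstream peaks (blue) and their flanking windows (light grey). The centred peaks lie at 9.82%, and the downstream peaks at 4.60% with intervals that overlap those of their flanking windows.

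With distance the share went from 3.53% up to 200 bp from the start to 4.60%, 5.41% and 6.34% in the farther ranges, and all 4 intervals overlapped. By part of the transcript it was 3.82% in 5′ UTRs, 4.88% in coding exons and 4.87% in introns. Motif-bearing peaks had a median fold enrichment of 4.79 (range 3.03 to 7.89) and the others 5.01. The median offset of the centre of the word from the summit was 51.0 bp at downstream peaks and 37.0 bp at centred ones. Extended to the whole called interval, 92 downstream peaks (10.6%) and 230 centred peaks (16.6%) held the word. At 69 of the 848 genes the word lay within 100 bp of the start itself, while no summit window held it.

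The 40 motif-bearing downstream peaks had 42 words, of which 22 were AAGATGGC, 10 AAAATGGC and 10 AACATGGC, with no AATATGGC. On the strand of the gene lay 26 of the 42 (61.9%, interval 45.6% to 76.4%), which did not pass the test against equal strands (p = 0.164, exact binomial test, adjusted 0.287). Centred peaks had 94 of 142 (66.2%) on the gene strand (ratio 0.935, 0.718 to 1.22, p = 0.713, Fisher's exact test, adjusted 0.806). The form with G stood on the gene strand in 18 of 22 cases (81.8%, 59.7% to 94.8%, p = 0.00434, exact binomial test), and the other forms in 8 of 20.

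Of the 26 words on the gene strand, 8 (30.8%, interval 14.3% to 51.8%) had their ATG at an annotated start codon. At centred peaks 47 of 94 did (50%, 39.5% to 60.5%). Besides the 5 printed above, these were Klhdc2, Hcfc2 and Pank4. Among genes with no peak within 2000 bp of a coding start, 369 of 1364 words on the gene strand in the first 1000 bp (27.1%) did so, and the ratio of 1.14 (0.635 to 2.04) was not significant (p = 0.660, Fisher's exact test, adjusted 0.806). Iba57, a factor for iron-sulfur proteins of mitochondria, had the tallest of these peaks (18 fragments over 1.70, fold enrichment 7.04). The word began 45 bp from the start, and its centre lay 59 bp before the summit. Sart3, which recycles spliceosomal snRNPs, had 21 fragments over 2.34 (6.59), with the word 872 bp from the start. Uqcrc1, a core subunit of respiratory complex III, had 17 over 1.98 (6.05). Cops4, a subunit of the COP9 signalosome, had 14 (5.04), Ddx1, an RNA helicase, 12 (4.82), and Klhdc2, a substrate receptor of a ubiquitin ligase, 13 (4.70). Hcfc2, a relative of the transcription cofactor HCF-1, had 11 (4.03) and Pank4, of the pantothenate kinase family, 13 (3.53). The 8 proteins thus belong to different processes.

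The words shown from first introns of RNA-binding and splicing genes lay under peaks of 7.89 (Sfpq, 19 fragments), 7.49 (Tra2b, 18), 6.67 (Srek1, 17), 5.70 (Srsf5, 18) and 3.03 (Srsf6, 11). Measured from its centre, the word at Srsf6 lay on the summit, at Tra2b 3 bp from it, at Srsf5 12 bp, and at Sfpq and Srek1 58 and 62 bp away. Rbm15b, a further RNA-binding protein gene, had a word in its 5′ UTR under a peak of 7.49, where a RefSeq start lay 6 bp beyond the summit.

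Genes with a downstream peak held the word more often than genes without a peak. In the sequence from 1 to 1000 bp downstream of the start, 174 of 848 genes (20.5%, interval 17.8% to 23.4%) had AANATGGC, against 2351 of 15539 genes with no peak (15.1%, 14.6% to 15.7%). The ratio was 1.36 (1.18 to 1.56), which passed Fisher's exact test (p = 4.80e-05, adjusted 0.000168). The start was the one nearest the summit for genes with a downstream peak, and the 5′-most one for genes with no peak. The part of this difference in the ratio was not tested. A summit window held the word at 40 of the 848 genes. Genes with centred peaks were not counted in this way. Downstream summit windows were also rich in G and C. The median G and C content of downstream summit windows was 73.1% and the median ratio of observed to expected CpG 0.941. At the same median distance from the start, genes with no peak had 55.7% and 0.419, and the part of this difference in the ratio was not tested.

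Other promoter words were counted on both strands of the same windows of 100 bp to each side, as a description. Each share at peaks is given beside that over all single coding starts, 232 bp downstream of the start for downstream peaks and on the start for centred ones. GGGCGG, bound by SP and KLF factors, was present in 61.4% of downstream windows (27.1% over all starts) and in 70.2% of centred windows (38.7%). CCGGAAG, bound by ETS factors, was present in 7.25% of downstream (3.31%) and 17.8% of centred windows (8.10%). GCATGCGC, bound by NRF1, was present in 2.42% (0.544%) and 7.22% (2.46%). CCAAT, bound by NF-Y and usually placed upstream of the start, was present in 8.17% of downstream windows (17.6%) and 18.2% of centred windows (27.2%), below all starts in both. TGACGTCA, bound by CREB, was present in 0.575% of downstream (0.266%) and 3.54% of centred windows (1.80%). TATAAA was present in 0.230% (5.81%) and 1.16% (8.86%). The longer YY1 word AAGATGGCG, which contains the word above, was present in 15 downstream windows (1.73%), against 0.566% over all starts at that distance, and in 3.90% of centred windows, against 1.66% over all starts.

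The 869 peaks belonged to 848 genes, which is 3.87% of the 21938 protein-coding genes, and centred peaks belonged to 6.3%. A promoter summit of any kind, within 1000 bp of a coding start, was present at 18.7% of genes. The counts for gene lists are read against these shares, and no test was made over the lists. For 755 of the 848 genes (89.0%) the downstream peak came without a centred or upstream one. Of the others, 43 had a centred peak and 51 an upstream peak, 1 of them both.

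Histone modifiers, splicing factors and translation factors had shares above 3.87%. Of 72 histone modifiers 10 had a downstream peak (13.9%) and 10 a centred one. Kdm3b and Kdm5a, demethylases of histone H3, had fold enrichments of 7.10 and 6.05, and Kat6b, an acetyltransferase, had 5.52. Of 81 splicing factors 11 had a downstream peak (13.6%) and 11 a centred one, led by Prpf39 (7.33), Hnrnpu (6.05) and Srsf5 (5.70). In all 50% of the histone modifiers and 59.3% of the splicing factors had a promoter summit of any kind, so both lists were above the background for every class of peak. Of their genes with a promoter summit, 27.8% and 22.9% had a downstream peak, against 20.7% over all genes with one. Of 68 translation factors 8 had a downstream peak (11.8%) against 13 with a centred one. Those with a downstream peak included Eif3b (8.28) and Eif4a1 (7.79), of translation initiation, and Eef1akmt2 (7.06), a methyltransferase of an elongation factor. Of the 68 translation factors, 51.5% had a promoter summit of any kind. Of these, 22.9% had a downstream peak, against 20.7% over all genes with a promoter summit.

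Cytosolic ribosomal, respiratory and proteasome genes had centred peaks more often than downstream ones, as all protein-coding genes did. Of 83 cytosolic ribosomal protein genes 7 had a downstream peak (8.43%) and 18 a centred one (21.7%), and Rps6 (6.27), Rplp2 (6.12) and Rpl10a (5.44) were the highest. Of 94 genes of oxidative phosphorylation 1 had a downstream peak (1.06%), Uqcrc1, against 14 with a centred peak (14.9%). Of 50 proteasome genes 0 had a downstream peak and 13 a centred one (26%). Of 37 aminoacyl-tRNA synthetase genes the numbers were 0 and 4. These low counts depended on the counting rule. With shared promoters included and any coding start of a gene counted, 1578 of all genes (7.19%) had a summit in the range. Oxidative phosphorylation then turned from below the background to above it, with 10 of 94 (10.6%), while proteasome genes (3 of 50, 6%) and synthetase genes (2 of 37, 5.41%) remained below. The mitochondrial ribosomal proteins, with 3 of 78 (3.85%) for downstream and 5 (6.41%) for centred peaks, were at the background of both, but with any coding start counted they had 8 (10.3%) against 7.19%. Mrpl39 was the highest (6.72), followed by Mrps24 (4.03) and Mrpl17 (3.23).

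In the other lists downstream peaks were present at 12 of 178 ubiquitin enzymes (6.74%), led by Ube2m (8.07), Fbxo21 (7.10) and Ube2z (6.70). They were present at 25 of 435 Zfp and Zbtb zinc finger genes (5.75%), led by Zbtb2 (8.68), Zfp580 (7.89) and Zfp710 (7.49). The cell cycle and origin list, set by the symbols Cdk, Cdc, Ccn, Mcm and Orc, had 5 of 95 (5.26%). It was led by Cdk13 (7.06), a kinase of transcription elongation, Cdk2ap1 (6.70) and Cdc5l (6.05), so a symbol does not place each gene in the cell cycle. Vesicle traffic had 10 of 212 (4.72%), led by Rab33b (7.72), Ap5b1 (6.31) and Rab6b (6.31). In the same order, centred peaks were present at 14.0%, 8.05%, 11.6% and 13.7% of these lists, against 6.3% over all genes. Of their genes with a promoter summit of any kind, 19.0%, 22.7%, 16.7% and 14.9% had a downstream peak, against 20.7% over all genes with one. Of 26 muscle stem cell and muscle genes 3 had a downstream peak (11.5%, against 3.87% over all genes). With any coding start counted the list also had 3, against 7.19% over all genes. These were Itgb1, the β1 integrin subunit (4.48, 13 fragments over 2.12), Dag1, the dystroglycan gene whose product anchors dystrophin (4.37, 12 over 1.98), and Pax7 (2.65). Matrix and adhesion genes had 3 of 87 (3.45%): Itga9 (4.70), Itgb1 and Col23a1 (4.03). None of 52 chemokine and chemokine receptor genes had a downstream, centred or upstream peak, and 1 of them (1.92%) had a promoter summit of any kind. Of the imprinted genes Peg3 and Gnas neither was a member.

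**Figure D5:**
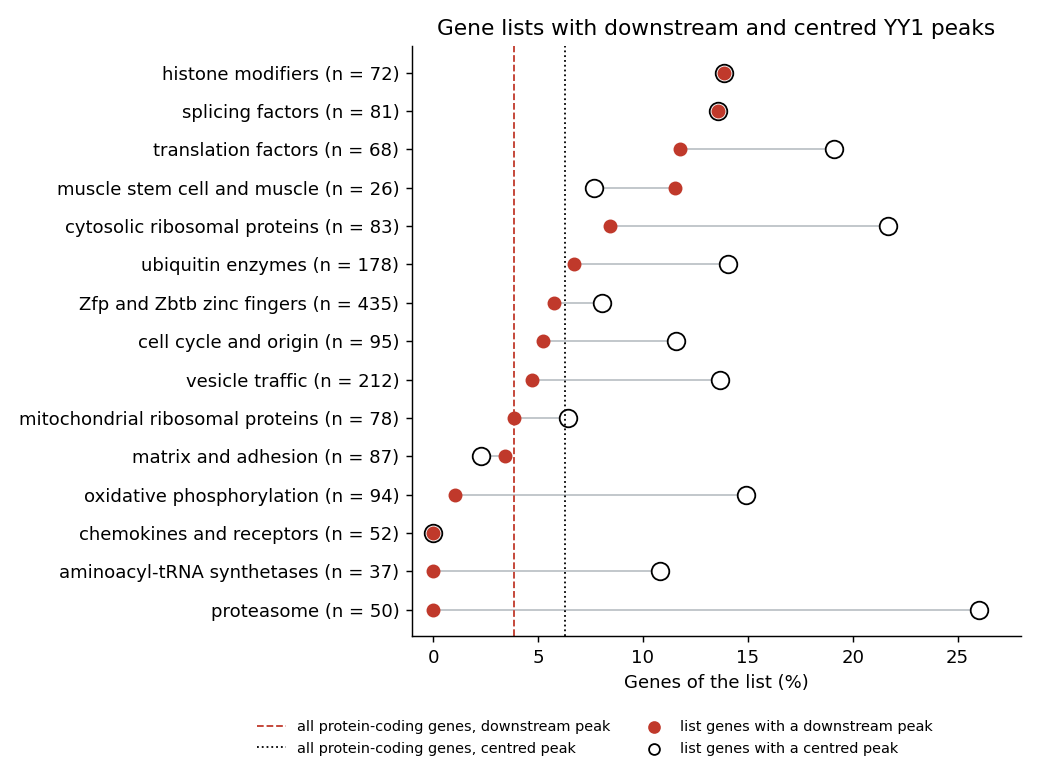
Percent of the genes of each list (x axis) with a downstream peak (red) and with a centred peak (open circles), for 15 lists (y axis, n genes); the dashed and dotted lines are the shares over all protein-coding genes, 3.87% and 6.3%. Histone modifiers and splicing factors have equal shares of both, while proteasome and oxidative phosphorylation genes lie at 0 and 1.06% for downstream peaks and at 26% and 14.9% for centred ones. Shared promoters are left out.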

How the data were processed

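Per the labels and the Methods, the authors mapped ChIP-seq reads to mm10 with Bowtie2, removed duplicate reads and used MACS2, with 0.0001 as the highest p-value, to call peaks over the background library (versions not given in the sources used here). The deposited list gives the fold enrichment (a ratio), the −log10 p-value and the −log10 q-value of each peak. Its integer score, deposited by the authors, was not used. The background library was not analysed on its own here.

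Fragments at each summit and the local background were recovered from fold enrichment and p-value, with all 4681 peaks matched within 0.001 of the deposited −log10 p. The most frequent background, 1.54 fragments, corresponds to about 13400000 fragments with MACS2's preset mouse genome size and the narrowest peak (215 bp) as fragment length. A deeper library would let weaker sites pass.

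Summits were placed against GENCODE M21 basic transcripts. The word was searched in the GRCm38 reference (RefSeq), within 100 bp of the summit, and flanking windows were centred 2000 bp to each side. Shares have exact (Clopper-Pearson) 95% intervals, and 7 comparisons of windows were adjusted together (Benjamini-Hochberg). A strand test of AAGATGGC, tests of 3 gene measures and the tests of the alternatives stood outside these 7. Heights were not tested, since peaks of 1 library are not replicates. Near-identical windows (at least 95% of bases) were found with minimap2 2.31. The members and the gene lists were chosen with earlier results of these data known. Genes named are the 10 tallest peaks, the 5 with most fragments, the 8 tallest with the word at a start codon, the 5 tallest with several words (2 exist), 3 per list, Peg3 and Gnas, and those stated to be chosen later. Rbm15b, Mtln, the genes of near-identical windows and the genes with several peaks were also chosen after their values were seen.

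On simulated data, 1500 of 1500 summits were placed correctly, 200 of 200 planted words were found, and fragments were recovered for 2000 of 2000 peaks. Python 3.11.15, numpy 2.4.6, scipy 1.17.1, pysam 0.24.0, statsmodels 0.14.6, matplotlib 3.10.9 and samtools 1.23.1 were used. Alternatives were stricter peak limits, other annotations and distance windows, other word forms and windows, and other flanks. An item withheld from this text is not reported here.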

Additional observations from a re-analysis of the deposited data

How the results depend on the processing

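No paired analysis was possible because a single YY1 library was compared with a single background library. The lower share of the word at downstream than at centred peaks, and its higher share in genes with a downstream peak than in genes with no peak, kept direction and significance under all 13 and all 5 alternatives, although 1 of the 13, every basic transcript, left the peaks as they were and tested nothing. The ratio against flanking windows did not: it passed p under 0.05 with curated RefSeq starts (1.60), 1 start per gene (1.90), no exclusion of shared starts (1.59) and windows of 250 bp either side (1.51), and reversed with AANATGG (0.514). The ratio against upstream peaks reversed with RefSeq starts (1.30, p = 0.253, Fisher's exact test). The share on the gene strand passed with windows of 250 bp (61.3%) and with AAGATGGC (81.8%). The share of windows with the word was 1.96% within 50 bp, 12.7% within 250 bp, 2.30% for AAGATGGC and 6.90% for AANATGG, which follows from the length of window and word. A fold enrichment of at least 5 left 434 peaks, with 35.5% in introns and 41.5% in 5′ UTRs. The other counts ran from 708 to 1092. Counting every gene with any coding start in the same range upstream of a summit, shared promoters included, gave 1578 genes. The shares of the lists are then read against 7.19% over all genes. Splicing factors had 19 (23.5%), histone modifiers 16 (22.2%), translation factors 13 (19.1%) and cytosolic ribosomal proteins 11 (13.3%). Ubiquitin enzymes had 22 (12.4%), zinc fingers 53 (12.2%), vesicle traffic 23 (10.8%), oxidative phosphorylation 10 (10.6%) and mitochondrial ribosomal proteins 8 (10.3%). The cell cycle and origin list had 8 (8.42%), proteasome genes 3 (6%) and synthetase genes 2 (5.41%). Leaving out near-identical windows, or keeping only peaks of the same class in both annotations, was chosen after seeing the data and changed no call. The number of fragments, a median of 13, limits how well single peaks are known.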

Other observations

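Several downstream peaks of 1 gene were found at 20 of the 848 genes. Egr1, an early response transcription factor, had 3, with fold enrichments of 2.83, 6.12 and 6.18. The summits of the last pair lay upstream of the nearest curated RefSeq start and downstream of a GENCODE start only. Cdk13, a kinase of transcription elongation, had peaks of 7.06 (20 fragments) and 6.31 (15) at 128 and 744 bp from their nearest starts, and at 128 and 1190 bp by RefSeq. Sox12, a SOX transcription factor, had peaks of 7.89 (19 fragments) at 407 bp and 3.53 (13 fragments) at 967 bp. Morf4l1 had 3.36 (9 fragments) at 258 bp, without the word, and 5.69 (14) at 776 bp, with both of its words. At Lin9, a subunit of the DREAM and MuvB complexes, the word lay under the nearer peak (3.64, 17 fragments) and not under the farther (5.13, 12 fragments).

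Genes with downstream peaks had longer annotated first exons than genes with centred peaks, a comparison chosen after the data were seen. The class of a summit and the length of the first exon are both measured from the same annotated start. A start annotated farther out raises both, so the test cannot separate them, and it was not repeated with RefSeq starts. The first exon of the transcript was longer than 210 bp, the median over all single coding starts, at 533 of 848 genes with a downstream peak (62.9%) and at 658 of 1338 genes with a centred peak and no downstream one (49.2%). The ratio was 1.28 (1.19 to 1.38), which passed Fisher's exact test (p = 3.71e-10, adjusted 1.11e-09 over 3 measures). Median first exons were 274 bp with downstream, 246.5 bp with upstream and 209 bp with centred peaks, and 203 bp with no peak, so the upstream group lay close to the downstream one. Median 5′ UTRs were 209, 198, 169 and 149 bp in that order. For the 5′ UTR the shares above the common median of 157 bp were 60.6% and 53.4% (ratio 1.13, 1.05 to 1.22, p = 0.00106, Fisher's exact test, adjusted 0.00159). The 5′ UTR runs from the same annotated start, so the limit given for the first exon holds for it too. For the first intron the shares above the median of 2889 bp were 61.2% and 58.7% (ratio 1.04, 0.972 to 1.12, p = 0.257, Fisher's exact test, adjusted 0.257).

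In the first 1000 bp of genes with a downstream peak, 130 of 202 words stood on the gene strand (64.4%, interval 57.3% to 71.0%). In genes with no peak the number was 1364 of 2655 (51.4%, 49.5% to 53.3%). The starts were again those nearest the summit for genes with a downstream peak and the 5′-most ones for genes with no peak. This comparison was also chosen after the values were seen and was not tested.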
